A study of Homo sapiens with 8 samples.

Results

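The genes described are 10 core components of the human DNA replication machinery: the DNA polymerase alpha-primase subunits POLA1, POLA2, PRIM1 and PRIM2, the DNA polymerase delta subunits POLD1, POLD2 and POLD3, the DNA polymerase epsilon subunits POLE and POLE2, and the flap endonuclease FEN1. They were chosen by symbol, and all 10 were found among the 19952 symbols of each library. Total RNA was sequenced from 8 libraries of human uveal melanoma cell lines, 2 per group. In the line 92.1 the groups were shCtrl, labelled as the control, and shA3B, with knockdown of APOBEC3B (A3B), a cytidine deaminase that acts on single-stranded DNA. In the line MEL290 the groups were NC, labelled as the control, and A3B OE, with overexpression of A3B. According to the study's methods the shRNA and the A3B coding sequence were delivered by lentiviruses carrying puromycin resistance, so the groups are selected populations of cells. Nothing in the labels says that the 2 libraries of a group came from separate cultures, and the p-values then measure only the spread between libraries.

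Values are FPKM, fragment numbers scaled to the length of a transcript and to the size of its library, which allow levels to be compared between genes per length. In 92.1, A3B stood at 35.9 and 32.3 FPKM with shCtrl and at 1.98 and 2.37 FPKM with shA3B. It was at 2.67 and 2.19 FPKM in MEL290 NC and at 28.4 and 27.5 FPKM in A3B OE. The labels were borne out by this gene in all 8 libraries. Depth, read only roughly from low FPKM values, was 25200000 to 32200000 fragments in 92.1, 17600000 and 20700000 in MEL290 NC and 28100000 and 22900000 in A3B OE. The 9 melanocytic marker genes examined summed to 7282 to 8952 FPKM in 92.1 and to 15.4 to 20.8 FPKM in MEL290, where TYR, the tyrosinase gene, was listed at 0 in all 4 libraries and MITF, the melanocyte lineage factor, accounted for 13.7 to 19.6 FPKM. The 10 marker genes of other cell types summed to 6.67 to 8.03 FPKM in 92.1 and to 27.3 to 41.6 FPKM in MEL290, of which the collagen gene COL1A1 made up 26.9 to 40.7 FPKM. MEL290 is therefore described by its name, and not as a melanocytic cell.

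Copying of nuclear DNA is divided among 3 polymerases. Polymerase alpha-primase lays down a short RNA and DNA primer at every start, polymerase epsilon then extends the leading strand, and polymerase delta extends the lagging strand in short Okazaki fragments. FEN1 removes the flap of displaced primer between fragments so that DNA ligase I, encoded by LIG1, can seal them. Transcripts of many of these genes are known to rise as cells enter S phase, through E2F factors that bind sites in their promoters.

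The promoter sequences shown are those with an E2F word. All 10 transcripts were higher in both A3B OE libraries than in both control libraries of MEL290, as were 31.5% of 11611 genes tested. Whether E2F factors had a part in this was not tested. Windows from 250 bases before to 50 bases after the start site were taken from RefSeq (GRCh38.p14), which held an entry for 9 of the 10 genes. The words searched on both strands were TTTCCCGC, TTTCGCGC, TTTGCCGC and TTTGGCGC. At least 1 of them was in 1164 of 35116 promoters of this length (3.31%). The 9 genes had 11 promoters, and 4 of these held such a word, in POLA1, POLA2, POLE and POLE2. The 30 bases around each match follow, 5′ to 3′ on the strand of the gene, with the word in capitals.
POLA1, chrX:24693770-24693799, plus strand: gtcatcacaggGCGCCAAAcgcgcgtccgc
POLA2, chr11:65261898-65261927, plus strand: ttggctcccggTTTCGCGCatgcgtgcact
POLE, chr12:132687342-132687371, minus strand: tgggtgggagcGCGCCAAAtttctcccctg
POLE2, chr14:49688201-49688230, minus strand: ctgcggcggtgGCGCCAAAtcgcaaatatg
In POLA1, POLE and POLE2 the word is the reverse complement of TTTGGCGC, and in POLA2 it reads TTTCGCGC directly. Counted from the RefSeq start site, the matches lie close to it in POLE2 (bases -5 to 2, with the start at 0) and POLE (bases -18 to -11). They lie farther upstream in POLA2 (bases -53 to -46) and POLA1 (bases -137 to -130). In each of these genes that start site differs from the outer bound of the gene in GENCODE, which is the coordinate given below. A search for CCAAT, on both strands, found it in 34.6% of all promoters and in 4 of the 11, in POLA1, POLD2, POLE and PRIM1. A match is only a run of letters, and binding was not measured.

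The question in MEL290 was what changes when A3B is overexpressed. All 10 genes had higher FPKM in both A3B OE libraries than in both NC libraries. Across the 11611 genes tested such a separation upwards was found in 31.5%. With limma, 6 of the 10 passed an adjusted p of 0.05, all higher in A3B OE: POLA1, PRIM1, PRIM2, POLD1, POLD2 and FEN1. Of all genes tested, 10.3% were called higher. The median log2 fold change of the 10 was 0.68, beside 0.0041 over all genes tested, on the log2(FPKM + 1) scale used for every fold change here. That scale understates the change of the lower genes. The summed FPKM of the 10 genes was 136 and 137 in NC and 207 and 200.3 in A3B OE. In bulk RNA a larger share of cells that express a gene and more transcript per cell cannot be told apart.

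**Figure D1:**
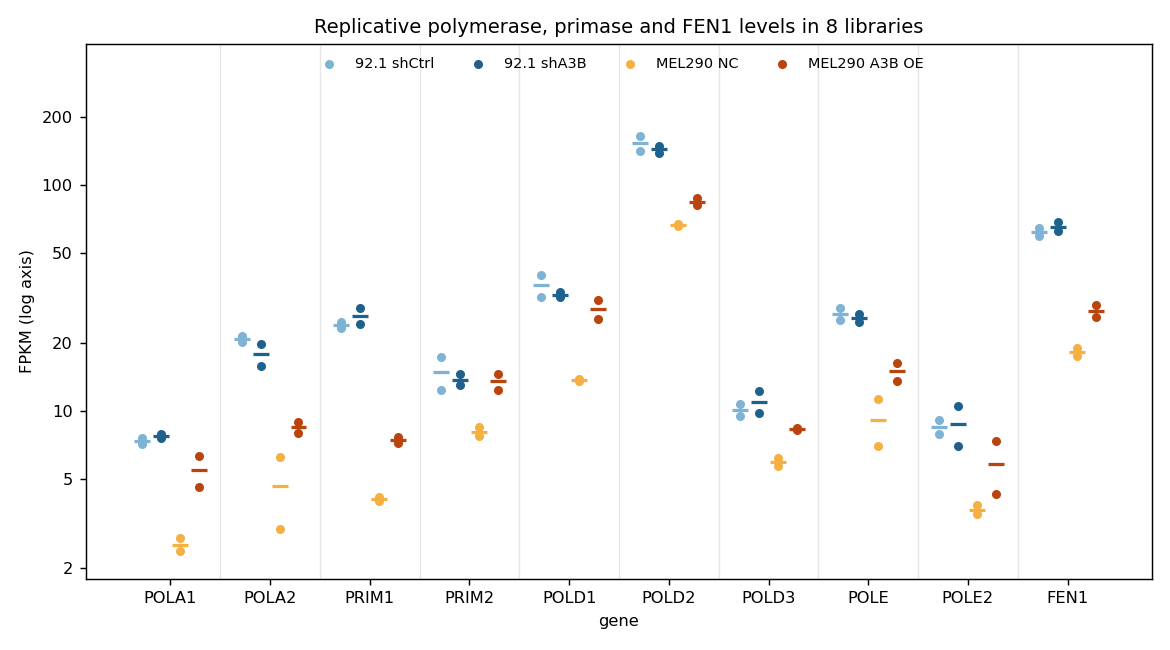
FPKM (log axis) of each of the 10 genes in every library, as points, with the group mean as a bar, for 92.1 shCtrl, 92.1 shA3B, MEL290 NC and MEL290 A3B OE. In every gene the NC points are the lowest and both A3B OE points lie above them, while the shCtrl and shA3B points overlap in 9 of the 10 genes.

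In polymerase alpha-primase 3 of the 4 subunits passed as higher in A3B OE, where 10.3% of all genes tested were called higher. POLA1, the catalytic polymerase subunit (chromosome X, 24693873 to 24996986, GRCh38, 37 exons), was at 2.38 and 2.72 FPKM in NC and at 6.27 and 4.60 FPKM in A3B OE. Its log2 fold change was 0.85 (SE 0.17, adjusted p = 0.0231, limma). PRIM1, the subunit that synthesises the RNA primer (chromosome 12, 56730438 to 56752374, 13 exons), was at 4.0 and 4.13 FPKM in NC and at 7.20 and 7.65 FPKM in A3B OE. The libraries of each group lay close together, and the log2 fold change was 0.73 (SE 0.12, adjusted p = 0.0129, limma). PRIM2, the large primase subunit (chromosome 6, 57314805 to 57646850, 14 exons), went from 7.72 and 8.42 FPKM to 12.4 and 14.5 FPKM, with a log2 fold change of 0.67 (SE 0.13, adjusted p = 0.0181, limma). POLA2, the accessory subunit that joins the polymerase to primase (chromosome 11, 65261913 to 65305959, 18 exons), had NC libraries that stood far apart, at 3.0 and 6.24 FPKM. Its A3B OE libraries were at 7.92 and 8.94 FPKM, both above them. The log2 fold change of POLA2 was 0.81 (SE 0.28) and did not pass (adjusted p = 0.0987, limma). Without NC replicate 2, POLA2 passed, with a log2 fold change of 1.23, and without NC replicate 1 it fell to 0.38 (adjusted p = 0.1836, limma).

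In polymerase delta, POLD1 and POLD2 passed and POLD3 did not. POLD1, the catalytic subunit with the proofreading exonuclease (chromosome 19, 50384204 to 50418018, 27 exons), was at 13.5 and 13.9 FPKM in NC and at 30.9 and 25.5 FPKM in A3B OE. It had the largest log2 fold change of the 10 genes, 0.99 (SE 0.12, adjusted p = 0.0052, limma), and at 97.8 the highest percentile of them among all genes tested. POLD2, the subunit that bridges the catalytic subunit and the others (chromosome 7, 44114631 to 44124358, 11 exons), was the most abundant of the 10 transcripts, at 65.9 and 67.2 FPKM in NC and at 86.9 and 81.2 FPKM in A3B OE. Its log2 fold change of 0.33 was the smallest of the 10 (SE 0.07, adjusted p = 0.0299, limma). POLD3, the subunit that binds the sliding clamp PCNA (chromosome 11, 74493851 to 74669117, 12 exons), was at 5.69 and 6.17 FPKM in NC and at 8.20 and 8.36 FPKM in A3B OE. Its groups did not overlap, but the log2 fold change of 0.42 (SE 0.12) did not pass (adjusted p = 0.0585, limma).

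Neither polymerase epsilon subunit passed, and FEN1 did. POLE, the catalytic subunit (chromosome 12, 132623753 to 132687376, 49 exons), was at 11.3 and 6.97 FPKM in NC and at 13.6 and 16.2 FPKM in A3B OE, a log2 fold change of 0.68 (SE 0.22, adjusted p = 0.0817, limma). Its NC libraries spread widely, and without NC replicate 1 POLE passed, with a log2 fold change of 0.99, while without NC replicate 2 the value was 0.37 (adjusted p = 0.1538, limma). POLE2, the second subunit (chromosome 14, 49643555 to 49688422, 19 exons), was at 3.49 and 3.81 FPKM in NC and at 4.25 and 7.35 FPKM in A3B OE. Here the A3B OE libraries spread, and POLE2 had the weakest support of the 10, with a log2 fold change of 0.51 (95% interval -0.05 to 1.07, adjusted p = 0.1815, limma). Leaving out A3B OE replicate 1 gave POLE2 a value of 0.85, leaving out replicate 2 gave 0.18, and neither passed. FEN1 (chromosome 11, 61792911 to 61797238, 2 exons) was at 18.9 and 17.5 FPKM in NC and at 29.2 and 26.0 FPKM in A3B OE, with a log2 fold change of 0.57 (SE 0.10, adjusted p = 0.0156, limma). Of the 10 genes 9 had an unadjusted p under 0.05, POLE2 being the exception, beside 33.1% of all genes tested in either direction. The 4 genes with an E2F word in the promoter window had log2 fold changes of 0.51 to 0.85, and 1 of them, POLA1, passed. The 5 with an entry and no such word, FEN1, POLD1, POLD2, PRIM1 and PRIM2, all passed, at 0.33 to 0.99, which is given as a description.

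The number of genes called rested in part on the A3B OE libraries. Without A3B OE replicate 1, 2 of the 10 passed (PRIM2 and POLD1), and without replicate 2, 3 passed (POLA1, POLD1 and FEN1). With either NC library left out 6 passed, and POLD2 was not among them in any of the 4 cases, while POLD1 was in all 4. POLD2 was also lost with the replicate number as a block (adjusted p = 0.0564, limma), where 5 of the 10 passed. In limma with no trend POLD2 was lost (adjusted p = 0.0804) and POLD3 passed (adjusted p = 0.0461), and in the joint fit of 8 libraries POLD2 was lost (adjusted p = 0.0537) and POLE passed (adjusted p = 0.0447). The NC libraries were the shallowest of the 8, and the part of depth in these differences was not tested.

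**Figure D2:**
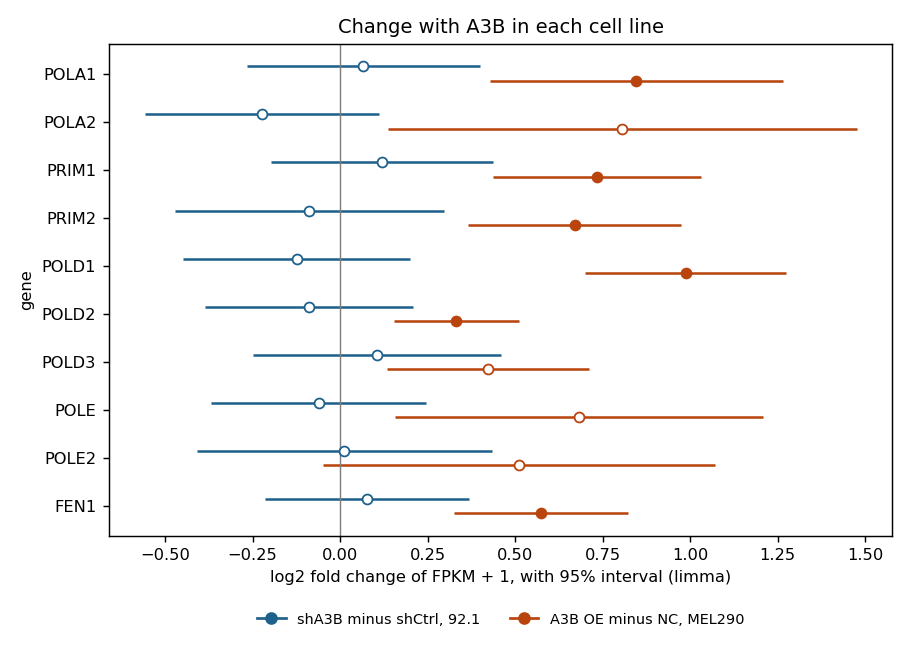
Log2 fold change of FPKM + 1 with its 95% interval from limma for each of the 10 genes, in 92.1 (shA3B minus shCtrl, blue) and in MEL290 (A3B OE minus NC, orange). Filled points passed an adjusted p of 0.05. The 92.1 values lie between -0.22 and 0.12 with every interval spanning 0, and the MEL290 values between 0.33 and 0.99 with 6 filled points.

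The question in 92.1 was what changes when A3B is depleted, and none of the 10 genes passed. The limma test called 0.00862% of the 11605 genes tested, in either direction, which is A3B alone. No gene of the 10 had an unadjusted p under 0.05, against 336 of all genes tested (2.90%). The log2 fold changes of the 10 ran from -0.22 in POLA2 to 0.12 in PRIM1, 5 above and 5 below 0, with a median of -0.02 beside 0.0001 over all genes tested. Each adjusted p was 0.9994. The summed FPKM of the 10 was 347 and 379 in shCtrl and 356 and 348 in shA3B, and these ranges overlap.

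Of the alpha-primase genes, 3 of 4 overlapped between shCtrl and shA3B. POLA1 was at 7.53 and 7.09 FPKM in shCtrl and at 7.53 and 7.89 FPKM in shA3B. PRIM1 was at 23.2 and 24.8 FPKM in shCtrl and at 24.1 and 28.5 FPKM in shA3B. PRIM2 was at 17.3 and 12.3 FPKM in shCtrl and at 12.9 and 14.5 FPKM in shA3B, so its spread within shCtrl exceeded the difference of the means. POLA2, at 21.3 and 20.2 FPKM in shCtrl and at 19.7 and 15.7 FPKM in shA3B, was the only one of the 10 whose groups did not overlap. A separation in either direction was found in 28.6% of the genes tested. The log2 fold change of POLA2 was -0.22 (95% interval -0.56 to 0.11, adjusted p = 0.9994, limma).

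Polymerase delta, polymerase epsilon and FEN1 overlapped between shCtrl and shA3B in every gene. POLD1 was at 32.0 and 39.7 FPKM in shCtrl and at 33.5 and 31.8 FPKM in shA3B, POLD2 at 141 and 165 FPKM and at 149 and 139 FPKM. POLD3 was at 10.7 and 9.51 FPKM in shCtrl and at 9.75 and 12.2 FPKM in shA3B. For POLD1 the interval of the log2 fold change was -0.45 to 0.20, which leaves out the MEL290 estimate of 0.99 and also its negative. This did not hold for the other delta subunits. The interval of POLD2, -0.38 to 0.21, includes the negative of its MEL290 estimate of 0.33. That of POLD3, -0.25 to 0.46, includes its MEL290 estimate of 0.42. POLE was at 25.3 and 28.4 FPKM in shCtrl and at 24.7 and 26.7 FPKM in shA3B, and POLE2 at 9.08 and 7.87 FPKM and at 6.93 and 10.5 FPKM. FEN1 was at 59.3 and 64.1 FPKM in shCtrl and at 68.3 and 62.1 FPKM in shA3B. The widest of the 10 intervals was that of POLE2, -0.41 to 0.43, so that changes of up to about that size in either direction remain within it.

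The effects in the lines were compared directly in 1 fit over all 8 libraries, as the change with A3B OE in MEL290 minus the change with shA3B in 92.1. The manipulations run in opposite directions, and each line has its own control. A gene that followed A3B in both lines would also give a value above 0. Such a value alone does not show that the lines respond differently to A3B. All 10 differences were above 0, from 0.32 in POLD3 to 1.11 in POLD1, with a median of 0.68 beside 0.0027 over all genes tested. POLD1 alone passed (1.11, SE 0.19, adjusted p = 0.0213, limma), where 3.06% of the 12697 genes tested were called higher. The other 9 had adjusted p-values from 0.0833 in PRIM1 to 0.4746 in POLE2 (limma), and 8 of the 10 had an unadjusted p under 0.05, beside 19.9% of all genes tested in either direction. The call of POLD1 was lost when any library other than shCtrl replicate 1 was left out, with values from 0.96 to 1.25 in those 7 cases. It was also lost with the replicate number as a block (adjusted p = 0.0566, limma) and with no filter on low FPKM (adjusted p = 0.0527, limma).

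The lines were also compared through their control libraries. All 10 genes were lower in MEL290 NC than in 92.1 shCtrl and passed the test in the same fit (limma), where 40.1% of genes tested were called lower. The median log2 difference of the 10 was -1.27, beside -0.08 over all genes tested. PRIM1 had the largest difference, -2.30 (SE 0.12, adjusted p = 4.9e-07, limma), followed by POLA2 at -2.01 and FEN1 at -1.71. The smallest were POLD3 at -0.68 (SE 0.13, adjusted p = 0.0017, limma) and PRIM2 at -0.78. The lines also differ in origin and in the control construct, and these cannot be told apart here.

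The A3B OE libraries lay between the MEL290 NC and the 92.1 levels. In mean FPKM, NC was the lowest group and A3B OE the next in all 10 genes, an order found in 23.9% of 12697 genes. For 8 of the 10 genes all 4 libraries of 92.1 were above all 4 of MEL290, the exceptions being PRIM2 and POLE2, and the same was found in 39.3% of 12697 genes. PRIM2 reached 14.5 FPKM in A3B OE replicate 2, beside a lowest 92.1 value of 12.3 FPKM. POLD1 came close, with 30.9 FPKM in A3B OE replicate 1 beside a lowest 92.1 value of 31.8 FPKM. PRIM1 stayed far apart, the highest MEL290 value being 7.65 FPKM and the lowest 92.1 value 23.2 FPKM.

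The order of the 10 transcripts, per length, was similar at the top in every group. POLD2 was the highest in all 4 groups, and FEN1 and POLD1 took the next places. In shCtrl no neighbours in the order overlapped, from POLD2 with a mean of 153 FPKM to POLA1 with 7.31 FPKM. PRIM1 had rank 5 in shCtrl at a mean of 24.0 FPKM and rank 8 in NC at 4.06 FPKM, while PRIM2 had rank 7 at 14.8 FPKM and rank 5 at 8.07 FPKM. POLA1 was the lowest of the 10 in every group. In A3B OE the libraries of POLD1 and FEN1, of POLE and PRIM2, of POLA2 and POLD3, of PRIM1 and POLE2 and of POLE2 and POLA1 overlapped, so the order of those neighbours was not resolved. The same held in NC for POLE and PRIM2, for POLD3 and POLA2 and for POLA2 and PRIM1, and in shA3B for PRIM1 and POLE, for POLD3 and POLE2 and for POLE2 and POLA1.

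The FPKM ratios between subunits of 1 complex, taken within each library, separated some of the groups. Those described are a choice from the ratios computed. The ratio of POLD2 to POLD1 FPKM was 4.89 and 4.84 in NC and 2.81 and 3.19 in A3B OE, while in 92.1 it was 4.43 and 4.15 in shCtrl and 4.44 and 4.36 in shA3B. The A3B OE libraries were the lowest of the 8 for this ratio. An exact two-sided permutation test over the 4 MEL290 libraries gave p = 0.33, the smallest value that 2 against 2 allows. The ratio of PRIM2 to PRIM1 set the lines apart instead, at 0.50 to 0.74 in 92.1 and at 1.72 to 2.04 in MEL290, so the primase subunits changed places in the order. The ratio of PRIM1 to POLA1 was 3.09 to 3.61 in 92.1 and 1.15 to 1.68 in MEL290.

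**Figure D3:**
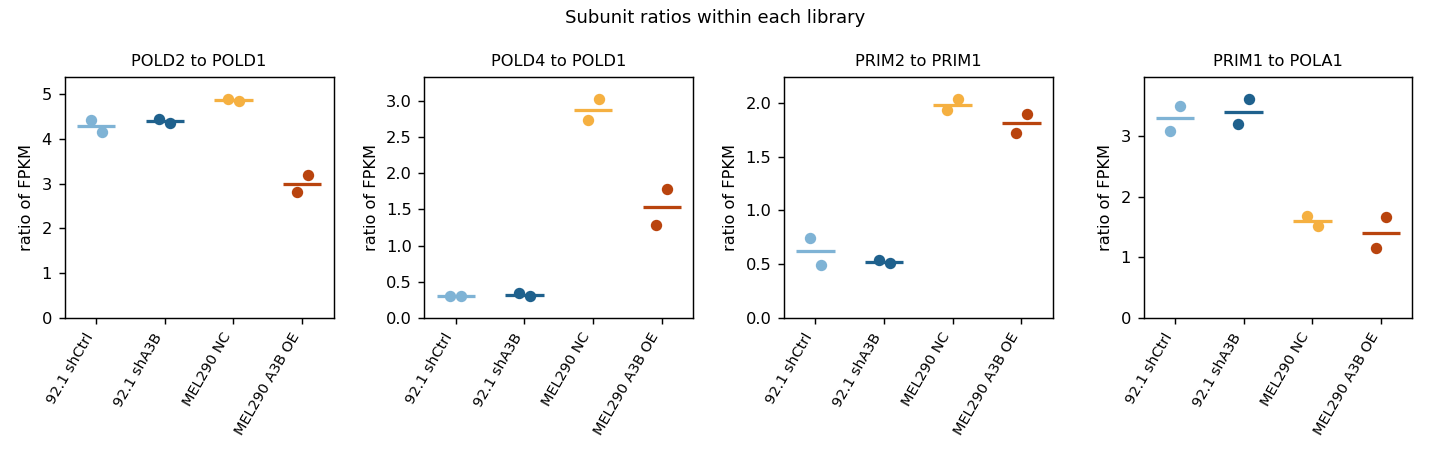
Ratio of FPKM between subunits within each library (points) and the group mean (bars), for POLD2 to POLD1, POLD4 to POLD1, PRIM2 to PRIM1 and PRIM1 to POLA1. POLD2 to POLD1 is lowest in the A3B OE libraries (2.81 and 3.19), whereas PRIM2 to PRIM1 and PRIM1 to POLA1 separate 92.1 from MEL290.

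The small subunits of polymerases delta and epsilon, which are outside the 10 genes, did not pass in A3B OE. POLD4, the smallest subunit of polymerase delta, was at 36.8 and 42.0 FPKM in NC and at 39.6 and 45.3 FPKM in A3B OE, a log2 fold change of 0.11 that did not pass. The log2 fold changes of the histone-fold subunits of polymerase epsilon were 0.09 for POLE3 and -0.16 for POLE4, and neither passed. The ratio of POLD4 to POLD1 was 2.73 and 3.03 in NC and 1.28 and 1.78 in A3B OE. Between the lines POLD4 ran opposite to the other delta subunits: it was at 9.51 and 12.03 FPKM in shCtrl, and the log2 difference of NC from shCtrl was 1.78 (SE 0.15, adjusted p = 9.8e-06, limma). POLD4 was therefore below POLD1 in all 92.1 libraries, at ratios of 0.30 to 0.35, and above it in all MEL290 libraries.

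Factors that act beside the polymerases were raised in part in A3B OE. Of 19 replisome partners tested, 6 passed higher and none lower, with a median log2 fold change of 0.11. Over all genes tested 10.3% were called higher. LIG1, which seals Okazaki fragments after FEN1, was at 14.9 and 15.3 FPKM in NC and at 29.3 and 27.6 FPKM in A3B OE, with a log2 fold change of 0.87 (SE 0.09, adjusted p = 0.0037, limma). RNASEH2A, the catalytic subunit of the RNase H2 enzyme that removes RNA from DNA, was at 11.8 and 9.26 FPKM in NC and at 19.9 and 17.1 FPKM in A3B OE, with a log2 fold change of 0.77 (SE 0.15, adjusted p = 0.0191, limma). DNA2, a nuclease that cuts long flaps, also passed, at 0.69, and so did PCNA, the sliding clamp, at 0.41. Of 13 other DNA polymerase genes tested, which serve repair, lesion bypass and mitochondria, 1 passed: POLQ, the polymerase of microhomology-mediated end joining, at 0.64. Their median was 0.07. In 92.1 no partner and no other polymerase had even an unadjusted p under 0.05 (limma), and the medians were 0.02 and 0.08.

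Genes that mark the phases of the cell cycle moved in A3B OE too. Of 10 G1/S genes 6 passed higher, with a median log2 fold change of 0.54, and the largest were RRM2 (1.07), MCM2 (0.96) and CDT1 (0.70). In the same list 2 genes had values below 0, down to -0.42, and did not pass. Of 10 G2/M genes all 10 passed higher, with a median of 1.05, led by MKI67 (1.39), KIF11 (1.18) and TOP2A (1.14). The share called higher over all genes tested was 10.3%. MKI67, a proliferation marker, was at 10.7 and 10.8 FPKM in NC and at 29.0 and 30.6 FPKM in A3B OE. In 92.1 no gene of these lists passed (limma), and 1, in G2/M, had an unadjusted p under 0.05. The 92.1 medians were -0.02 for G1/S and 0.18 for G2/M. With shA3B 9 of the 10 G2/M genes had values above 0 and 1 below, while G1/S had 5 and 5. In 7 of the 10 G2/M genes both shA3B libraries were above both shCtrl libraries. Such a separation upwards was found in 1781 of 11605 genes tested. The part of cell cycle distribution in the polymerase values was not tested. Between the control libraries 8 of the 10 G1/S genes and 6 of the 10 G2/M genes passed as lower in MEL290, as all 10 replication genes did. MKI67 was the only gene of these lists to pass as higher (1.42, SE 0.52, adjusted p = 0.0345, limma). Its libraries stood far apart in 92.1, at 2.06 and 5.27 FPKM in shCtrl and at 2.05 and 9.43 FPKM in shA3B. Every one of these values was below both NC values, so the opposite direction of MKI67 held in each library. Its size rests on an estimate with a wide spread.

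**Figure D4:**
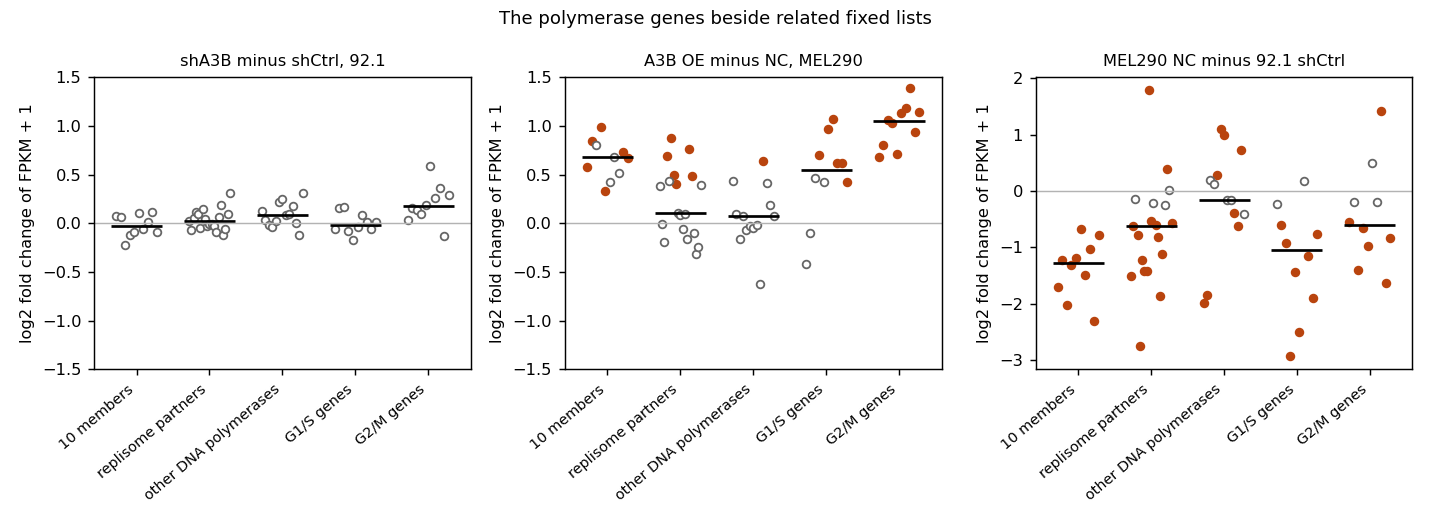
Log2 fold change of FPKM + 1 for the 10 genes and 4 related lists, in 92.1 (shA3B minus shCtrl), MEL290 (A3B OE minus NC) and between controls (MEL290 NC minus 92.1 shCtrl). Each point is a gene, filled where it passed an adjusted p of 0.05, and black bars are list medians. In MEL290 the medians are 0.68 for the 10 genes, 0.11 for partners, 0.07 for other polymerases, 0.54 for G1/S and 1.05 for G2/M. No point is filled in 92.1.

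The mean profile of the 10 genes over the 8 libraries, each gene centred on the log2 scale, was compared with 10239 genes of at least 1 FPKM on average in every group. The nearest genes outside the 10 were PXMP4, ANP32B and DPYSL3, with root mean square differences of 0.058, 0.068 and 0.077. Among the 10 the nearest to their own mean were POLD2 (0.15, rank 80) and POLA1 (0.16, rank 123), and the farthest was PRIM1 (0.49, rank 3863). The likeness rests on 4 groups in 2 lines and describes these libraries.

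Some of the values carry an annotation limit. The library kit as named does not mark strand, and how the deposited values divided shared reads is not given in the sources used here. An exon of PRIM1 overlaps NACA by up to 139 bases on the same strand, and NACA was at 534 to 659 FPKM over the 8 libraries. In MEL290 NACA was at 659 and 627 FPKM in NC and at 640 and 609 FPKM in A3B OE, groups that overlap. PRIM1 also overlaps HSD17B6 by up to 132 bases on the opposite strand. HSD17B6 was at 1.12 to 1.51 FPKM in 92.1 and at 0.14 to 0.32 FPKM in MEL290, the same direction between the lines as PRIM1. A further annotated gene overlaps PRIM1 by up to 101 bases and has no value here. FEN1 overlaps FADS2 by up to 49 bases, and FADS2 was at 13.0 to 18.4 FPKM in 92.1 and at 101 to 111 FPKM in MEL290, a direction opposite to that of FEN1. Exons of POLA2, POLD1 and POLD3 also overlap annotated genes, by up to 543, 133 and 123 bases, and those genes have no value here. Pseudogene copies are annotated for PRIM2, POLD2 and FEN1, and reads shared with them could not be separated here.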

How the data were processed

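RNA was measured in 8 libraries, 2 in each of 4 groups, and groups were taken from the sample titles. The authors deposited FPKM, 1 value for each symbol in each library. By the submitters' processing notes and the study's methods they aligned reads to GRCh38 with STAR and computed FPKM with Cufflinks over Ensembl genes. Versions of these tools are not given in the sources used here, and the Ensembl release named in the methods was made on the build before GRCh38, so the annotation behind the values is uncertain. FPKM is not a count, so no count test was run. Of 19952 symbols, 19033 matched GENCODE release 44, which gave coordinates, exons, length and GC content.

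From these values log2(FPKM + 1) was computed. Genes reaching an FPKM of 1 in 2 or more libraries of a fit were tested with limma 3.58.1 (R 4.3.3, empirical Bayes with a trend) and Benjamini-Hochberg adjustment over all genes tested, with a threshold of 0.05. Each line was fitted alone; the difference of the effects and the comparison of the controls came from 1 fit of 8 libraries with 4 group means. Scripts were tested on simulated data. Depth was estimated from low FPKM values of genes, of which 17.4 to 28.8% lay within 5% of the best fitting depth, so it is rough and gives no counting error.

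The 10 genes, the lists and the tests were chosen with earlier results of these data known. Named beside the 10 were A3B, POLD4, POLE3, POLE4, LIG1 and RNASEH2A, for each list at most 3 genes passing with the largest change, and the 3 nearest profiles. PCNA, TYR, MITF, COL1A1, NACA, HSD17B6 and FADS2 fall outside that rule and were named after their values were seen. Alternatives were quantile normalization, scaling to the upper quartile, limma with no trend, other filters, a pseudocount of 0.1, a minimum fold change, a joint fit, a block for the replicate number, removal of a GC and length trend, each library left out and, chosen after seeing the data, median centring. Replicate numbers were not treated as pairs.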

Additional observations from a re-analysis of the deposited data

Results flagged for a closer look

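The change of POLD1 with A3B overexpression in MEL290 differed from its change with A3B depletion in 92.1 by 1.11 on the log2 scale (SE 0.19, adjusted p = 0.0213, limma interaction over 8 libraries). It was flagged because the difference itself passed the test. The manipulations run in opposite directions, so passing alone does not show that the lines respond differently to A3B. POLD1 was higher in 2 of 2 A3B OE libraries than in both NC libraries, and its shCtrl and shA3B libraries overlapped. With each library left out the value ran from 0.96 to 1.26, and it passed in 1 of these 8 cases, without 92.1 shCtrl replicate 1. The call was also lost with a block for the replicate number (adjusted p = 0.0566, limma) or with no filter on low FPKM (adjusted p = 0.0527, limma).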

How the results depend on the processing

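In MEL290 the number of the 10 genes passing was 6. It was 2 with no filter on low FPKM, where 15736 genes were tested, 0 when a log2 fold change of at least 1 was also asked for, and 2 to 6 with each library left out. With no trend and with the joint fit it stayed at 6, with POLD2 lost and POLD3 or POLE gained. The difference of the effects had 1 gene passing, and 0 with no filter, 0 with the replicate block, 2 with the GC and length trend removed (POLD1 and PRIM1) and 0 to 1 with each library left out. Without MEL290 NC replicate 2 the gene that passed was POLA2. In 92.1 the 0 genes passing stayed at 0 under every alternative. Between the controls 10 passed under every alternative except the minimum fold change of 1, which PRIM2 (-0.78) and POLD3 (-0.68) did not reach. The median of the 10 there, -1.27, became -1.43 with a pseudocount of 0.1. The sign of single genes in 92.1 was not stable: POLE2 became -0.0067 with quantile normalization, -0.0896 with the GC and length trend removed and -0.0026 with median centring. With each library left out the ranges were -0.32 to 0.14 for PRIM2, -0.28 to 0.0294 for POLD1, -0.20 to 0.0208 for POLD2, -0.0428 to 0.25 for POLD3, -0.14 to 0.0203 for POLE and -0.25 to 0.28 for POLE2. No sign turned in the other comparisons. The causes were not tested.

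The same replicate numbers occur in all groups, but deviations of same-numbered libraries correlated by 0.19 in 92.1 and -0.03 in MEL290, with 2 pairs each, so the numbers were not read as pairs. The replicate block moved the genes called from 1 to 37 in 92.1, from 2065 to 1521 in MEL290, where 5 of the 10 genes passed, and from 559 to 223 in the difference. Counts over all genes also moved by over 1.5 times with no filter in MEL290 (915), with the stricter filter (328) and the GC and length trend removed (915) in the difference, without A3B OE replicate 1 (888) or 2 (809) in MEL290, and with any library left out in the difference (36 to 286) and in 92.1 (2 to 9). In 92.1 the count of 1 became 2 with no trend and 0 with no filter on low FPKM, where A3B itself was not called. With the GC and length trend removed, the calls of the difference were 541 higher and 374 lower, beside 388 and 171. Depth is known only roughly.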
